A study of Danio rerio with 4 samples.

Results

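The methylomes of whole zebrafish embryos at 24 hpf (hours post fertilization) and at 8 hpf were compared, that is, an embryo in organogenesis against a gastrula. Each stage is 1 whole-genome bisulfite library of DNA from timed embryos. Strain, sex, treatment and number of embryos are not given in the labels, and every cell type of the embryo is averaged in a library. A change in the cells that make up the embryo and a change within cells can therefore not be told apart. The series has 2 more libraries, from 2 hpf and 4 hpf, which served here as further values of the same loci. The genome was divided into windows of 1 kb, and a window was compared when it had at least 6 covered CpGs and at least 40 reads in both libraries. This left 1094813 of the 1354664 windows with a listed CpG, or 80.8%, and they hold 86.1% of the nuclear CpGs. The methylation level of a window is the share of methylated reads among all reads over its CpGs.

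In vertebrates DNA methylation sits almost only on CpGs, and most of the genome carries it. The exceptions are short hypo-methylated regions, many of them CpG-rich promoters, and in embryos also regulatory DNA of developmental genes. After each round of replication the maintenance methyltransferase Dnmt1 copies the mark to the new strand, while de novo Dnmt3 enzymes add it to unmethylated CpGs and Tet enzymes oxidize it. In zebrafish the phylotypic period, which begins around 24 hpf, is known as a time when Tet enzymes act on enhancers of developmental genes.

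A short stretch of sequence shows what a level is made of and how depth limits it. The reading primer of the sox5 viewpoint of the study's 4C experiment (a chromosome contact assay read from a chosen fragment) lies at chr4:16032897-16032922 (Zv9, plus strand) and holds 3 CpGs, written in capitals:
sox5 reading primer: cataaCGccccaCGtggcagCGgcat
The primer was placed by the spacing of its CpGs, which fits 1 place within 1 kb of the viewpoint, with the coordinates of the bait table read as Zv9. At 24 hpf the methylated reads over these CpGs were 3 of 11, 5 of 12 and 0 of 10, against 0 of 3 at each of them at 8 hpf. Together this is 8 of 33 reads at 24 hpf, or 24.2% (Wilson 95% interval 12.8 to 41.0%), against 0 of 9 reads at 8 hpf, which allows a share of up to 33.3%. This limit, like the others here for 0 methylated reads, is 3 counts over the number of reads and not a Wilson limit. A read that spans several of these CpGs is counted at each of them. The number of separate reads can therefore be smaller, and the interval and limits are then too narrow. At this depth a difference between both libraries was thus not detectable over the primer itself. No methylated read was seen there at 2 hpf (0 of 42, up to 7.14%) or at 4 hpf (0 of 99, up to 3.03%). Sox5 is a transcription factor of the SoxD group.

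Over a whole window many more reads come together. The median window had 211 reads at 24 hpf and 141 at 8 hpf, which gives Wilson intervals with a median width of 8.18 points at 24 hpf and 8.37 points at 8 hpf. The mean coverage per CpG was 12.3 reads at 24 hpf and 8.04 at 8 hpf. Mitochondrial CpGs, taken as an upper limit on incomplete conversion, had 0.439% methylated reads at 24 hpf and 0.436% at 8 hpf, so that the libraries differ little in this respect. Intervals cover counting error only, and they are too narrow because a read with several CpGs in it enters the sum once per CpG. No stage has a replicate, so no test between the stages was made, and windows are not replicates.

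The bulk of the genome was slightly less methylated at 24 hpf. The mean level of the windows was 84.8% at 24 hpf against 87.7% at 8 hpf, a difference of -2.88 points, and the median level was 89.4% at 24 hpf against 92.9% at 8 hpf. At the earlier stages the same windows had mean levels of 87.6% at 2 hpf and 87.3% at 4 hpf, so the 24 hpf library was the lowest of the series. The difference was a shift of the main mass of windows rather than of a tail. Its median was -2.92 points with quartiles of -5.65 and -0.26, and 841780 windows (76.9%) were lower at 24 hpf while 251247 (22.9%) were higher. Within 10 points of each other were 91.1% of the windows, and 99.5% were within 25 points. Each of the 25 chromosomes had a lower mean at 24 hpf, with the smallest difference on chromosome 22 (-2.55 points) and the largest on chromosome 12 (-3.17 points). Among 1339 intervals of 1 Mb with at least 400 windows each, the median difference was below 0 throughout, from -5.36 to -0.41 points.

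**Figure D1:**
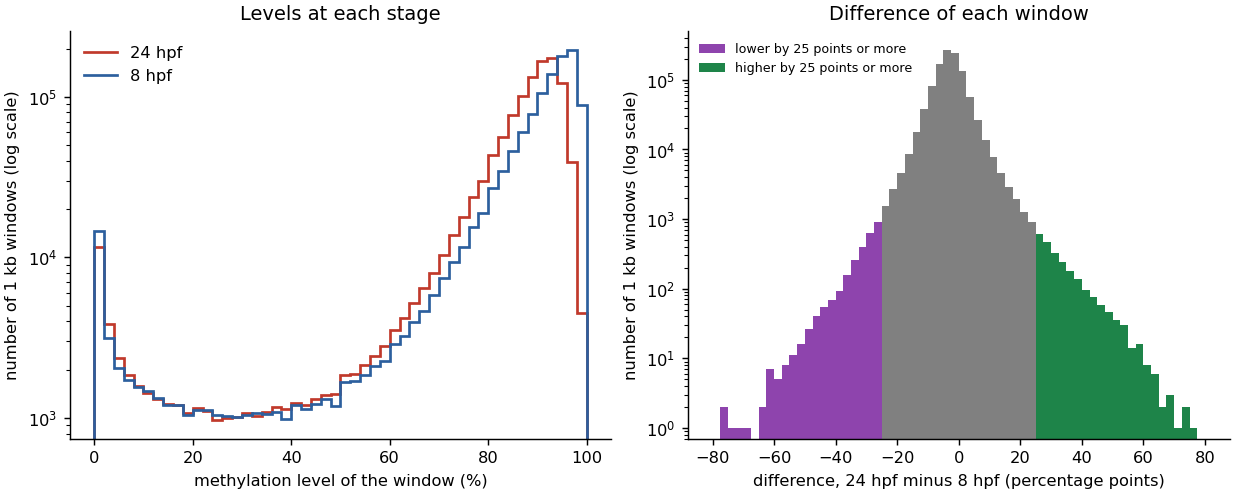
Left, number of 1 kb windows (log scale) by methylation level in bins of 2 points, at 24 hpf (red) and at 8 hpf (blue). Right, number of windows (log scale) by the difference 24 hpf minus 8 hpf in bins of 2.5 points, with the windows past 25 points in colour. The peak of highly methylated windows sits lower at 24 hpf, and the whole distribution of differences is centred on -2.92 points.

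The direction of the small difference went with the level a window started from. Because a start level taken from 8 hpf shares its counting error with the difference, windows were classed by the 4 hpf library, which is in neither arm. The 999772 windows above 75% at 4 hpf averaged 88.6% at 24 hpf against 91.8% at 8 hpf, a difference of -3.18 points, and 79.6% of them were lower at 24 hpf. The difference was larger the higher the start, at -2.74 points for windows of 75 to 90% at 4 hpf, -3.14 points for 90 to 95% and -3.65 points for 95% or more, where windows averaged 92.4% at 24 hpf against 96.1% at 8 hpf. Windows of 50 to 75% differed by -1.34 points, a sign that turned to 1.76 points when the class was set by the 8 hpf library.

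Below this the sign turned. Windows of 25 to 50% at 4 hpf were higher by 2.52 points at 24 hpf, and those of 10 to 25% by 3.46 points, with means of 30.6% at 24 hpf against 27.1% at 8 hpf. The 27229 unmethylated windows, those under 10% at 4 hpf, averaged 7.06% at 24 hpf against 5.44% at 8 hpf, and 62.2% of them were higher at 24 hpf. Their median moved less than their mean, to 2.84% at 24 hpf against 1.69% at 8 hpf, so a minority of windows carried much of the mean difference. These windows were already higher at 8 hpf than at 4 hpf, where they had been chosen for their low level and averaged 2.59%. Their median relative coverage (the share of a library's reads that fall in a window at 24 hpf over the same share at 8 hpf) was 0.813, and within 0.8 to 1.2 of it their difference was 1.36 points in place of 1.62. The spread among windows was widest in the middle classes: for a start of 25 to 50% the quartiles of the difference were -6.26 and 10.9 points.

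**Figure D2:**
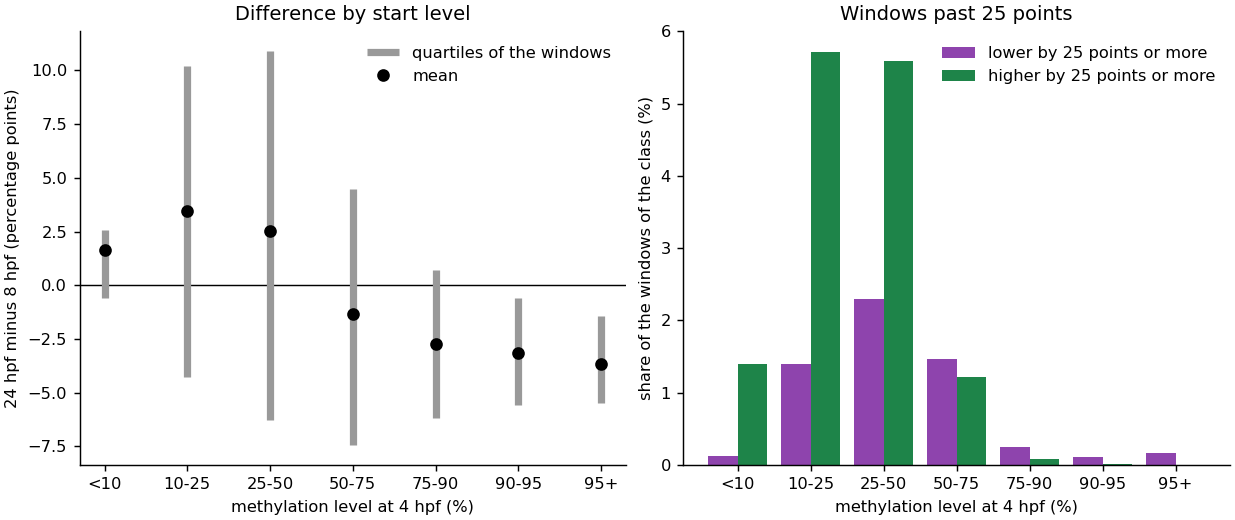
Left, difference 24 hpf minus 8 hpf in percentage points (black points, mean; grey bars, quartiles of the windows) by methylation level at 4 hpf. Right, share of the windows of each class that were lower (purple) or higher (green) by 25 points or more. The mean difference is above 0 for windows under 50% at 4 hpf and below 0 above that, reaching -3.65 points at 95% or more.

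Among highly methylated windows the difference was larger where CpGs are sparse. Windows above 75% at 4 hpf with 6 to 9 CpGs averaged 87.2% at 24 hpf against 91.5% at 8 hpf, a difference of -4.24 points. The difference shrank in each denser class, to -3.62 points with 10 to 14 CpGs, -3.16 with 15 to 19, -2.71 with 20 to 29, -2.05 with 30 to 49 and -1.47 points with 50 or more. In windows with at least 30 CpGs it was thus 2.28 points smaller in size than in those with 6 to 9. At 8 hpf the density classes had lain close together, between 91.5 and 92.8%, while at 24 hpf they spread from 87.2 to 91.4%.

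The same order appeared at the scale of single CpGs. In these windows, CpGs that directly adjoin another CpG (starts 2 bp apart) had a pooled level of 90.9% at 24 hpf against 92.6% at 8 hpf, a difference of -1.62 points. CpGs with the nearest neighbour 21 to 50 bp away differed by -3.51 points. Solitary CpGs, more than 100 bp from the next, had 84.5% at 24 hpf against 89.5% at 8 hpf, a difference of -5.07 points. Solitary CpGs had 89.97% at 2 hpf and 89.0% at 4 hpf, close to the level at 8 hpf.

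Coverage moved with both patterns. Relative coverage had a median of 0.852 in windows with 6 to 9 CpGs and of 1.34 in those with 50 or more. Windows with a relative coverage under 0.8 differed by -4.21 points and those with 1.2 or more by -2.16 points. The order by CpG density stood within each class of relative coverage. It ran from -4.73 points (6 to 9 CpGs) to -2.53 points (50 or more) where relative coverage was under 0.8, and from -3.28 to -1.19 points where it was 1.2 or more. Between 0.8 and 1.2, the CpG-rich windows differed from the CpG-poor ones by 1.80 points in place of 2.28.

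**Figure D3:**
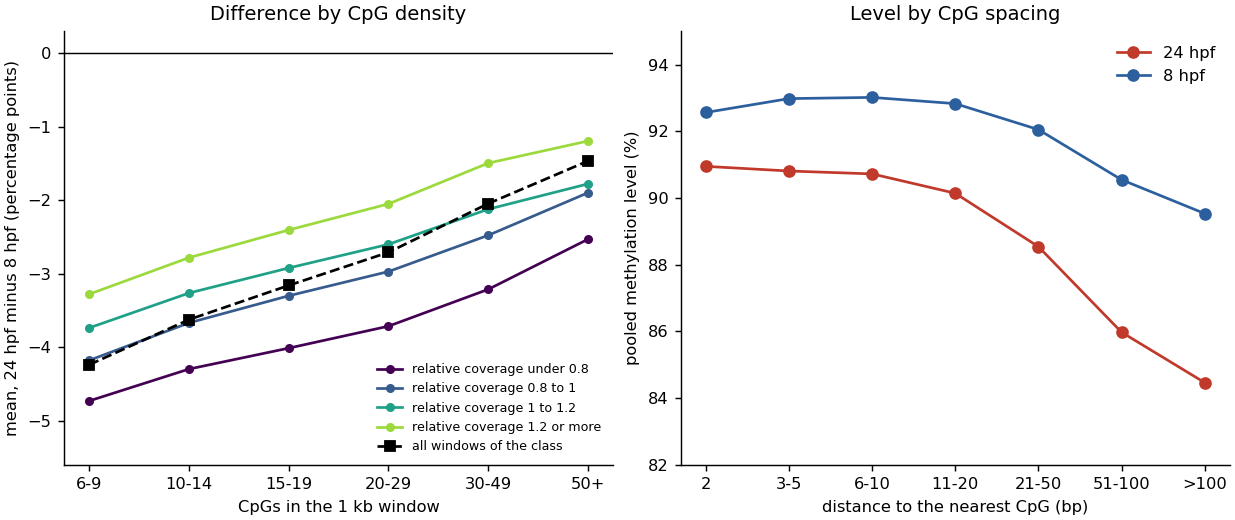
Left, mean difference 24 hpf minus 8 hpf in percentage points by the number of CpGs in the window, for windows above 75% at 4 hpf (black squares) and for the same windows split by relative coverage (coloured lines). Right, pooled methylation level at 24 hpf (red) and 8 hpf (blue) by the distance of a CpG to its nearest neighbour, on an axis that runs from 82 to 95%. Every line on the left climbs towards dense windows, and on the right the difference between both stages goes with spacing, -1.62 points at 2 bp and -5.07 points above 100 bp.

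Against this background only few windows changed by a lot. At 24 hpf 2702 windows were lower by 25 points or more, which is 0.247% of the windows compared (Wilson 95% interval 0.238 to 0.256%). Higher by as much were 2367 windows, which is 0.216% (0.208 to 0.225%). The intervals of these shares treat windows as independent, which neighbours are not, and leave out variation between libraries. They are therefore too narrow. In 2671 of the lost windows (0.244% of all) and 2349 of the gained windows (0.215% of all) the Wilson intervals of both libraries did not overlap. At the depth of most of these windows a difference of 25 points nearly forces the intervals apart, so this is no separate support. Among all windows compared, 119543 (10.9%) had intervals that did not overlap. The balance between both directions depends on the bulk shift: counted from the median difference of all windows, 1641 windows lost and 3450 gained 25 points, so that losses made up 32.2% of the called windows in place of 53.3%. The counts also depend on depth. Among the 779580 windows with at least 100 reads in both libraries 1224 (0.157%) lost and 1210 (0.155%) gained 25 points, and with window levels as means over CpGs with at least 5 reads in both there were 1786 losses and 1362 gains among 954829 windows. The windows were chosen by the difference between 24 hpf and 8 hpf, and that difference is therefore a description. The 461 windows just inside the threshold for loss had median levels of 65.5% at 24 hpf against 90.8% at 8 hpf, and the 549 just outside it 64.2% at 24 hpf against 88.6% at 8 hpf. For gain, the 273 just inside had 64.5% at 24 hpf against 39.2% at 8 hpf, and the 329 just outside 65.5% at 24 hpf against 41.1% at 8 hpf.

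Full switches between methylated and unmethylated were rare. Of 997024 windows at 75% or more at 8 hpf, 963970 were still there at 24 hpf, 33045 (3.31%) were between 25 and 75%, and 9 were under 25%. Of 32021 windows under 25% at 8 hpf, 28473 (88.9%) were still under 25%, 3528 (11.02%) were between 25 and 75%, and 20 had 75% or more. Of 65768 windows between 25 and 75% at 8 hpf, 15761 (24.0%) had 75% or more at 24 hpf and 1783 (2.71%) were under 25%. These classes share the counting error of 8 hpf, most of this class (51874 windows) lay between 50 and 75%, and so no direction is read from them.

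Lost and gained windows differed in CpG content and in start level. Lost windows had a median difference of -29.0 points and a median of 14 CpGs, fewer than the 16 of all windows, while gained windows had a median difference of 30.6 points and a median of 24 CpGs. Median reads were 125.5 (24 hpf) and 100 (8 hpf) in lost and 157 and 106 in gained windows, against 211 and 141 in all. Windows under 25% at both 2 hpf and 4 hpf, called or not, had a median of 27 CpGs. CpG content was thus not separated from depth or start level. Differences of 50 points or more were seen in 54 lost and 118 gained windows. The levels at both stages follow in part from the threshold. Of the lost windows 76.7% had 75% or more at 8 hpf, against 91.1% of all windows, and 91.9% lay between 25 and 75% at 24 hpf. Of the gained windows 41.7% were under 25% at 8 hpf, and 698 reached 75% or more at 24 hpf. By level at 4 hpf, gain was most frequent from 10 to 25% (5.72% of the class) and from 25 to 50% (5.59%), and loss from 25 to 50% (2.30%). Lost windows had a median relative coverage of 0.792 and gained windows of 0.964, against 0.967 in all windows. Among windows above 75% at 4 hpf, the share that lost 25 points was 0.401% at a relative coverage under 0.8, 0.126% at 0.8 to 1, 0.0752% at 1 to 1.2 and 0.0560% at 1.2 or more. The share that gained 25 points was 0.0211% at the lowest and 0.0499% at the highest relative coverage. Among the 585508 windows with a relative coverage of 0.8 to 1.2, 956 (0.163%) lost and 911 (0.156%) gained 25 points.

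The earlier libraries took no part in the choice and give further levels of the called windows. The 2648 lost windows with enough reads in all libraries had median levels of 83.0% (2 hpf), 81.5% (4 hpf), 89.2% (8 hpf) and 57.5% (24 hpf), so that the 24 hpf level was below all earlier ones. The 2302 gained windows had 38.9% (2 hpf), 35.1% (4 hpf), 29.7% (8 hpf) and 64.0% (24 hpf). Counted from 4 hpf in place of 8 hpf, the median difference at 24 hpf was -23.7 points in lost and 26.7 points in gained windows. The 8 hpf level itself differed from that of 4 hpf by a median of 5.55 points in lost windows and of -5.54 points in gained windows. A choice by a large difference favours counting error that moves the 8 hpf and 24 hpf levels apart. These medians follow in part from that choice and therefore do not date the changes.

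Partly methylated windows were over-represented in both directions. Between 25 and 75% at both 2 hpf and 4 hpf were 26.5% of the lost and 45.7% of the gained windows, but 3.47% of all windows. For gains the excess follows in part from the threshold. Only windows at 75% or less at 8 hpf can gain 25 points, while 91.1% of all windows had 75% or more there. The shares among windows with room to gain were not computed. In both directions counting error also enters, since it is largest at middle levels and such windows had fewer reads. Windows of 50 to 75% at 4 hpf had medians of 138 reads (24 hpf) and 100 reads (8 hpf). Those of 90 to 95% had 235 and 154. How much of the excess goes with this was not tested. Of the lost windows, 1499 (56.6%) had 75% or more at both early stages, less than the 90.7% of all windows, and their median was 64.0% at 24 hpf against 94.8% at 8 hpf. Another 701 had been between 25 and 75% at both early stages, with 40.4% at 24 hpf against 72.8% at 8 hpf. Of the gained windows 1052 had been between 25 and 75% at both early stages and had 70.1% at 24 hpf against 36.6% at 8 hpf. Another 643 (27.9%) had been under 25% at both, as were 2.99% of all windows, and these had 45.4% at 24 hpf against 10.2% at 8 hpf. In 2 smaller groups the 8 hpf median stood apart from all others: 172 gained windows at 75% or more and 76 lost windows under 25% at both early stages. This follows from the choice. A window that gains 25 points has 75% or less at 8 hpf, and one that loses 25 points has 25% or more there. The 172 had 82.05% (2 hpf), 83.5% (4 hpf), 57.6% (8 hpf) and 87.4% (24 hpf). The 76 had 17.7% (2 hpf), 11.5% (4 hpf), 45.8% (8 hpf) and 15.7% (24 hpf).

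**Figure D4:**
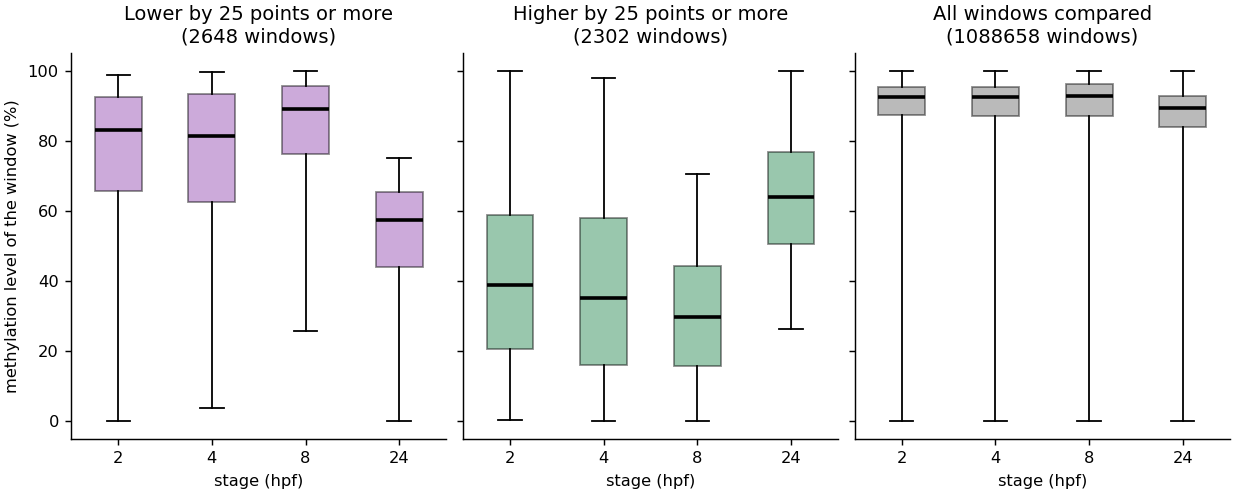
Methylation level (%) at 2, 4, 8 and 24 hpf of windows lower or higher by 25 points or more at 24 hpf than at 8 hpf, and of all windows, each with at least 6 covered CpGs and 40 reads in all libraries. Boxes show the quartiles and the median, whiskers the lowest and highest window. The median of lost windows is 57.5% at 24 hpf and at least 81.5% at each earlier stage, and that of gained windows is 64.0% at 24 hpf and at most 38.9% before.

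The difference of a window depends on those of its CpGs, so the values that follow describe the chosen windows. Because reads are pooled, it also depends on how the reads of each library are spread over CpGs of unlike level. They cover the 1649 lost (61.0%) and 1438 gained windows (60.8%) with at least 6 CpGs of 5 reads or more in both libraries. In these a median of 86.7% of the CpGs of a lost window were lower at 24 hpf and 52.9% were lower by 25 points or more. In gained windows 86.96% of the CpGs were higher and 57.1% were higher by 25 points or more. In all windows the medians were 50% of CpGs lower and 20% higher. A two-sided Fisher's exact test on the reads of each CpG, without adjustment, was run in all 2702 lost and 2367 gained windows. At least 5 CpGs with p under 0.05 in the same direction were found in 618 lost and 561 gained windows. The test compares these libraries and not the stages, and it uses the reads by which the windows were chosen. It was not run in other windows, so these counts are a description only.

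Losses were isolated, and gains came in longer stretches more often. The lost windows formed 2633 regions, of which 97.5% were single windows and the longest had 3. The gained windows formed 2139 regions, of which 92.1% were single windows, 27 had at least 3 windows and the longest had 8. Thus 16.8% of gained and 4.96% of lost windows were in a run. Neighbours at 1 kb differed in the same direction, which for losses is also that of the bulk. Windows 1 kb left and right of a loss differed by -5.15 and -4.92 points on average, and windows 10 kb away by -3.44 and -3.37 points, near the bulk. The medians around losses were -4.04 and -3.79 points at 1 kb and -3.10 and -3.03 points at 10 kb. Among the windows at 1 kb, 69 on each side were called losses themselves. Windows 1 kb left and right of a gain were higher by 6.54 and 6.14 points and those 2 kb away by 0.53 and 0.55 points, as means. Their medians were 1.499 and 1.24 points at 1 kb and -1.997 and -1.998 points at 2 kb, so that the means rest on a minority of windows, among them 228 at 1 kb and 94 at 2 kb on each side that were called gains themselves. Windows 10 kb from a gain differed by -2.63 and -2.61 points on average.

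Gains were more frequent in and beside unmethylated windows, and losses were more frequent beside them. Of the gained windows 33.5% were within 1 kb of a window under 10% at 4 hpf or were such a window, as were 9.99% of the lost and 5.14% of all windows. Of the windows beside an unmethylated one, 1.43% gained and 0.812% lost 25 points, and of those more than 50 kb away 0.114% gained and 0.221% lost. The former averaged 68.9% at 8 hpf and the latter 90.7%, so the former had more room to gain. Distance was thus not separated from start level in these shares. The mean difference also went with this distance, at -0.84 points beside an unmethylated window, -2.86 points at 2 kb and -3.10 points at more than 50 kb. Within windows of 90% or more at 4 hpf it was -3.24 points beside an unmethylated window and between -3.34 and -3.45 points at larger distances. Such windows have little room to gain 25 points. Their few gains (0 of 7653 windows beside an unmethylated one) therefore say nothing about distance.

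**Figure D5:**
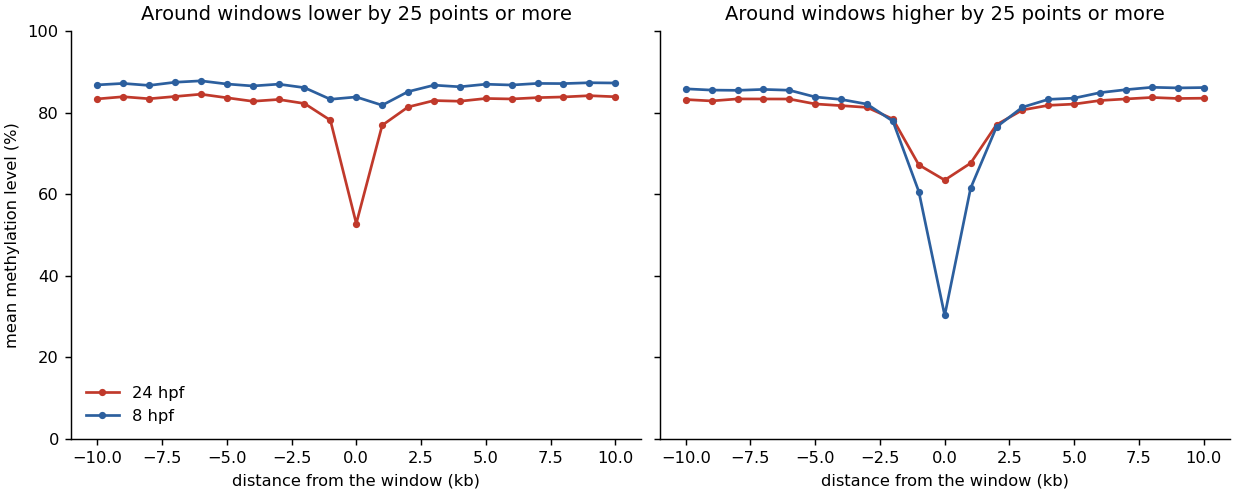
Mean methylation level (%) at 24 hpf (red) and 8 hpf (blue) in the 10 kb on each side of windows that were lower (left) or higher (right) by 25 points or more. The central window was chosen by its difference. Around gains the flanks dip at both stages, with means of 67.2 and 67.6% at 24 hpf against 60.7 and 61.5% at 8 hpf in the adjoining windows, while around losses the adjoining windows stay above 76% at both.

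Chromosome 9 stood apart in the number of called windows. It held 235 of the losses, 0.492% of its windows against 0.236% elsewhere, and 177 of the gains, 0.370% against 0.209% elsewhere. With 4.37% of all windows it thus had 8.70% of the losses and 7.48% of the gains, although its mean difference of -2.87 points was close to the -2.88 points of the genome. The most losses per 1 Mb were on it, 22 of 841 windows between 41 and 42 Mb, 18 of 831 between 40 and 41 Mb and 17 of 816 between 30 and 31 Mb, where the median 1 Mb interval had 1 loss. The most gains per 1 Mb were 15 of 866 windows on chromosome 22 between 5 and 6 Mb and 15 of 726 on chromosome 11 between 12 and 13 Mb. The excess was not the same between other pairs of libraries, some of which share a library with this comparison. Losses between 4 hpf and 8 hpf were 1.79 times as frequent on chromosome 9 as elsewhere, and gains 0.992 times. Between 2 hpf and 4 hpf both were less frequent there (0.788 times for loss and 0.751 times for gain). Without chromosome 9 there were 2467 losses and 2190 gains.

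The largest single losses were in windows of high methylation at 8 hpf, which in part follows from choosing the largest differences. The largest with at least 100 reads in both libraries was chr19:30796001-30797000, with 15.2% (10.5 to 21.5%, 164 reads) at 24 hpf against 90.3% (86.0 to 93.4%, 248 reads) at 8 hpf, and all of its 7 CpGs with at least 5 reads in both were lower. It had 75.7% at 2 hpf and 76.4% at 4 hpf. Its coverage was 0.914 times the median of the library at 24 hpf but 2.09 times at 8 hpf, so its relative coverage was low. The window chr18:30252001-30253000 had 25.3% (281 reads) at 24 hpf against 97.4% (266 reads) at 8 hpf, after 95.9% (2 hpf) and 97.9% (4 hpf). All 17 of its CpGs with enough reads were lower at 24 hpf, 15 of them by 25 points or more. The window chr16:49306001-49307000 had 41.3% at 24 hpf against 97.8% at 8 hpf, after 93.6% (2 hpf) and 96.1% (4 hpf). Both of these last windows were steady over the earlier stages and changed at 24 hpf alone.

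The 4 longest losses had 3 windows each. That with the largest mean difference, chr9:35504001-35507000, had 38.5% (34.8 to 42.3%, 650 reads) at 24 hpf against 92.5% (90.3 to 94.3%, 683 reads) at 8 hpf, but 75.6% at 2 hpf and 65.6% at 4 hpf. Of its 48 CpGs with at least 5 reads in both libraries, 46 were lower at 24 hpf and 39 by 25 points or more. The window chr9:34968001-34969000 followed the same course, with 78.6% (2 hpf), 65.4% (4 hpf), 93.0% (8 hpf) and 37.8% (24 hpf). In both, part of the difference was a higher level at 8 hpf than before. The 3 windows chr6:2164001-2167000 had 20.3% at 24 hpf against 62.6% at 8 hpf, after 58.4% (2 hpf) and 37.0% (4 hpf). The 3 windows chr8:47496001-47499000 had 12.6% at 24 hpf against 47.7% at 8 hpf, after 44.9% (2 hpf) and 53.4% (4 hpf). The 3 windows chr7:40560001-40563000 were near full methylation before, with 68.8% at 24 hpf against 98.0% at 8 hpf, after 95.8% (2 hpf) and 96.7% (4 hpf). The fifth region, chr15:7506001-7508000, had few reads (27.6% of 116 at 24 hpf against 83.5% of 97 at 8 hpf), and 1 of its CpGs had 5 reads in both.

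The longest gain spanned 8 kb. The region chr24:6429001-6437000 holds 203 CpGs and had 62.1% (60.5 to 63.8%, 3338 reads) at 24 hpf against 10.3% (8.98 to 11.9%, 1733 reads) at 8 hpf. Its level had been 10.02% at 2 hpf and 10.1% at 4 hpf, so that it was steady and low until 8 hpf. Of 115 CpGs with at least 5 reads in both libraries, 106 were higher at 24 hpf and 97 by 25 points or more. Inside it, the window chr24:6435001-6436000 had 74.1% at 24 hpf against 2.42% at 8 hpf. The region chr8:14226001-14232000 behaved alike over 6 windows, with 13.1% (2 hpf), 9.48% (4 hpf), 12.0% (8 hpf) and 50.6% (24 hpf). The region chr22:29426001-29432000, also of 6 windows, had 22.7% (2 hpf), 14.8% (4 hpf), 13.97% (8 hpf) and 55.4% (24 hpf). It was thinly covered: of its 192 CpGs 27 had at least 5 reads in both libraries, 22 of them higher and 5 lower at 24 hpf.

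Other long gains had moved before. The 7 windows chr22:5751001-5758000 had 29.3% (2 hpf), 36.5% (4 hpf), 19.3% (8 hpf) and 78.2% (24 hpf), and 53 of 57 CpGs with enough reads were higher by 25 points or more at 24 hpf than at 8 hpf. The 7 windows chr4:61293001-61300000 were higher at each later stage, with 2.66% (2 hpf), 8.31% (4 hpf), 38.2% (8 hpf) and 69.4% (24 hpf). They were covered at 10.7 times the median of the library at 24 hpf and at 3.65 times at 8 hpf, and whether reads of several copies are joined there was not tested. They hold 663 CpGs, and of the 625 with at least 5 reads in both libraries 611 were higher at 24 hpf. The other gain named among windows over 3 times the median coverage, chr2:47319001-47320000, had 62.1% at 24 hpf against 28.5% at 8 hpf, after 59.5% (2 hpf) and 59.0% (4 hpf), so that 8 hpf was the stage that stood apart. Of the losses among such windows, chr9:41104001-41105000 had 7.72% at 24 hpf against 56.0% at 8 hpf. All 12 of its CpGs with at least 5 reads in both libraries were lower, 10 of them by 25 points or more. The window chr2:55430001-55431000 had 26.1% at 24 hpf against 85.6% at 8 hpf. There, only 6 of 12 such CpGs were lower, and 2 by 25 points or more. Its coverage was 3.41 times the median of the library at 24 hpf and 1.52 times at 8 hpf.

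The largest difference of a single gained window with at least 100 reads in both libraries was at chr9:30066001-30067000. It had 87.6% (83.3 to 90.9%, 290 reads) at 24 hpf against 13.3% (8.11 to 21.1%, 105 reads) at 8 hpf, and all 14 CpGs with enough reads were higher by 25 points or more. At 2 hpf and 4 hpf it had 51.7% and 43.7%, so the 8 hpf level was also lower than those before. The next window, chr9:30067001-30068000, had 83.3% at 24 hpf against 16.2% at 8 hpf. By contrast chr23:43649001-43650000, with 72.0% at 24 hpf against 3.05% at 8 hpf, had been low before (16.7% at 2 hpf and 7.64% at 4 hpf). Of its 39 CpGs, 7 had at least 5 reads in both libraries. Between these cases were chr4:59657001-59658000, with 87.1% at 24 hpf against 18.5% at 8 hpf, and chr21:4807001-4808000, with 72.2% at 24 hpf against 9.09% at 8 hpf. Both had been partly methylated at 4 hpf, at 26.2% and 35.9%. At chr21:4807001-4808000, 6 of 29 CpGs had at least 5 reads in both libraries.

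The bait table of the study's 4C experiment lists 6 viewpoints, more than its text counts, each named after a developmental transcription factor gene. No annotation was used here to say how far they lie from these genes. Their windows differed by less than 25 points. All 6 windows were under 10% at 8 hpf. The paper describes its 4C viewpoints as hypo-enhancers, which it had selected for a methylation below 25% at 4 hpf. Low levels at 8 hpf and little room for a loss therefore follow in part from that choice. The lmx1ba window, named after a LIM homeobox gene, had 18.1% (14.5 to 22.4%) at 24 hpf against 4.57% (2.33 to 8.76%) at 8 hpf, and the sox5 window had 16.5% (11.9 to 22.5%) at 24 hpf against 6.54% (3.20 to 12.9%) at 8 hpf. The intervals of the lmx1ba window do not overlap, as in 10.9% of all windows compared, while those of the sox5 window do. Such an overlap does not show that the sox5 window was unchanged. Of those named after TALE homeobox genes, the meis2a window had 8.27% at 24 hpf against 3.82% at 8 hpf, and the meis1b window had 2.22% at 24 hpf against 0.763% at 8 hpf. The window named after nfixb, a nuclear factor I gene, had 1.95% at 24 hpf against 0 of 144 reads at 8 hpf, which allows up to 2.08%. The window named after barx1, a BarH-like homeobox gene, had 0.794% at 24 hpf against 0 of 193 reads at 8 hpf, which allows up to 1.55%. Both limits are 3 counts over the number of reads. The upper Wilson limits at 8 hpf are 2.60% for the nfixb window and 1.95% for the barx1 window.

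Among 27 windows compared within 2 kb of the viewpoints, 1 passed 25 points, where 0.247% of all windows were lower and 0.216% higher by as much. It lies 2 kb left of the nfixb viewpoint, at chr3:14455001-14456000, and had 69.6% (64.2 to 74.4%, 312 reads) at 24 hpf against 97.1% (94.2 to 98.6%, 243 reads) at 8 hpf. It had 96.0% at 2 hpf and 95.9% at 4 hpf and was thus steady until 8 hpf. Its first 250 bp had 77.1% at 24 hpf against 98.4% at 8 hpf and the next 250 bp had 54.3% at 24 hpf against 96.4% at 8 hpf, while the last 500 bp hold 2 CpGs. The neighbouring window towards the viewpoint was unmethylated at both stages, with 6.90% at 24 hpf and 2.88% at 8 hpf.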

How the data were processed

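Whole-genome bisulfite libraries of whole zebrafish embryos were examined at 8 and 24 hpf, with the 2 and 4 hpf libraries for start levels. The authors mapped reads to Zv9 (danRer7) and deposited, for each CpG, the fraction of methylated reads and the coverage over both strands; aligner and treatment of duplicates: not given in the sources used here. Fraction times coverage was whole within 0.00124 reads and was taken as the methylated reads. The 24222160 nuclear CpGs were summed in 1 kb windows, and differences are 24 hpf minus 8 hpf in percentage points. Depth was 299121963 reads over nuclear CpGs at 24 hpf and 194648540 at 8 hpf. A coverage that differs between libraries by CpG content could shift window levels. The window code was tested on simulated data. Named loci are, in each direction, the 5 longest runs of adjoining called windows, the 6 largest differences with at least 100 reads in both libraries, non-overlapping Wilson intervals and at most 3 times the median coverage, the 2 largest above that coverage, and the windows of the 6 viewpoints. Some of them fall under several parts of the rule. Members and lists were chosen with earlier results of these data known. No annotation of Zv9 was used here, so loci are given by position. Alternatives were other read and CpG minimums, shifted windows, means of CpG fractions, thinning, high-coverage windows left out, non-overlapping intervals, a Fisher criterion and start classes by 8 hpf, and, chosen after seeing the data, centring on the median, leaving out chromosome 9 and a limit on relative coverage. Python 3.11.15 with numpy 2.4.6, pandas 2.3.3, scipy 1.17.1 and matplotlib 3.10.9 was used.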

Additional observations from a re-analysis of the deposited data

How the results depend on the processing

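The mean differences of all windows, of windows above 75% and under 10% at 4 hpf and of CpG-rich minus CpG-poor windows kept their sign under each alternative run for them. The mean of windows of 50 to 75%, -1.34 points by the 4 hpf class, was 1.76 points by the 8 hpf class, and the alternatives were not run for other values. The counts were within 1.5 times the reported ones except as follows. With at least 100 reads there were 1224 losses and 1210 gains among 779580 windows (0.157% and 0.155%, against 0.247% and 0.216% at 40 reads). With window levels as means of CpG fractions (5 reads or more in both libraries) there were 1786 losses and 1362 gains among 954829 windows. With the Fisher criterion on at least 5 CpGs there were 618 losses and 561 gains. Chosen after seeing the data were the count from the median difference, with 1641 losses and 3450 gains, and a relative coverage of 0.8 to 1.2, with 956 losses and 911 gains among 585508 windows. Apart from the count from the median, these settings keep fewer windows or ask for more of each.

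The means moved by more than their counting error, which is small over so many windows, in the following cases. The difference of all windows, reported as -2.88 points, was -2.76 with at least 100 reads, -3.13 with means of fractions, -2.86 with CpGs covered in both libraries, -2.85 with 24 hpf thinned to the depth of 8 hpf, -2.87 without high-coverage windows and -2.94 at a relative coverage of 0.8 to 1.2. For windows above 75% at 4 hpf, reported as -3.18 points, it was -3.05 with at least 100 reads, -3.38 with means of fractions, -3.16 with CpGs covered in both, -3.15 thinned, -3.18 without high-coverage windows and -3.42 with the class set by 8 hpf. For windows under 10% at 4 hpf, reported as 1.62 points, it was 1.58 with at least 100 reads, 1.66 with means of fractions, 2.40 with the class set by 8 hpf and 1.36 at a relative coverage of 0.8 to 1.2. For CpG-rich minus CpG-poor windows, reported as 2.28 points, it was 2.35 with at least 100 reads, 2.25 thinned and 1.80 at that relative coverage.

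With 1 library per stage, stage and library cannot be told apart, and depth limits single windows: 40 reads give a wide interval, and 8 hpf is the shallower library. No paired analysis was possible because each stage has 1 library.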

Other observations

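Over the 1088658 windows with enough reads in all libraries, the step to 24 hpf had the largest mean difference of the consecutive steps: -0.20 points between 2 and 4 hpf, 0.36 points between 4 and 8 hpf and -2.88 points between 8 and 24 hpf. Losses and gains of 25 points numbered 1293 and 361 between 2 and 4 hpf, 1977 and 4309 between 4 and 8 hpf, and 2648 and 2302 between 8 and 24 hpf. With the other libraries thinned to the depth of 8 hpf these counts were 1519 and 549, 1931 and 4054, and 2386 and 1996 over 1002410 windows. Steps that share a library are not independent. The mean differences weigh each window alike. Pooled over the reads of all windows compared, the levels were 87.99% (2 hpf), 87.04% (4 hpf), 88.47% (8 hpf) and 86.42% (24 hpf). The contrast between the steps was smaller by that measure, with 24 hpf still the lowest.

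On chromosome 9 the 231 lost windows with enough reads in all libraries had median levels of 82.5% (2 hpf), 79.7% (4 hpf), 91.2% (8 hpf) and 58.9% (24 hpf), and the 175 gained windows had 55.9%, 55.1%, 41.9% and 76.7% at these stages. Elsewhere the 2417 lost windows had similar levels, 83.0%, 81.9%, 88.9% and 57.4%. The 2127 gained windows elsewhere had 37.6%, 33.3%, 29.2% and 63.2%.

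In the outer 500 kb of the chromosomes the mean difference was -2.14 points, against -2.89 points in the inner part, and their relative coverage was 1.13 against 0.965. Windows over 3 times the median coverage, 8989 in all, differed by -4.11 points and held 34 losses (0.378%) and 9 gains (0.100%), against 0.246% and 0.217% of the other windows. Their median relative coverage was 0.771, against 0.9685 in the others. High coverage was thus not separated from relative coverage.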
